A study of Sus scrofa with 6 samples.

Results

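EZH2, EED and KMT2A encode parts of the machinery that methylates histone H3. They were chosen by name, not by their values, as the rows of the gene count table whose Ensembl identifiers carry these symbols. All 3 were found among 1780 genes, and all 3 were among the 807 genes with enough reads to test. Their levels were compared between 3 control embryos and 3 parthenotes, all whole Landrace x Yorkshire x Duroc (LYD) pig embryos collected at embryonic day 21. The control embryos are labelled untreated. The parthenotes developed from oocytes that were stimulated with electric pulses and then placed in the oviducts of surrogate gilts, so they hold no paternal genome. The labels do not say whether embryos of a group shared a dam, and p-values therefore measure only the spread between these samples. Conception, handling and dam cannot be told apart from the missing paternal genome.

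EZH2 and EED are subunits of Polycomb repressive complex 2 (PRC2), which places methyl groups on lysine 27 of histone H3 and keeps developmental genes silent. EZH2 is the catalytic subunit, and EED is a WD40-repeat protein that binds the methylated lysine and stimulates the enzyme. KMT2A, also called MLL1, is the mammalian counterpart of Drosophila Trithorax. It methylates lysine 4 of histone H3, works with a shared core that includes RBBP5, and keeps genes such as the HOX genes active. In mouse embryos PRC2 also keeps some imprinted genes silent on the paternal chromosome, above all in extraembryonic tissue, and histone H3 lysine 27 methylation can itself carry a maternal imprint. Whether the RNA of these genes differed in embryos without a paternal genome is the question of this comparison.

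Of the 688 genes in the table that could be placed by symbol, 686 lie on chromosome 9. A CPM value is a count per 1000000 of the reads in this table after TMM scaling, and each library held 1193714 to 1484193 such reads. Control 1 and parthenote 1 stood apart from the other libraries of their groups. Their chi-square against the other libraries of their group was 141 and 143 per degree of freedom for control 1, and 61.0 and 52.8 for parthenote 1, while the remaining pairs gave 6.98 among controls and 21.1 among parthenotes. Values of the 3 genes, and of others that moved most with control 1, are therefore also given without these libraries. The chi-square used counts without TMM scaling. The most abundant gene held 20.8% of the reads in control 1, against 8.29% and 8.47% in control 2 and 3. In parthenote 1, 2 and 3 that gene held 19.1%, 15.4% and 18.0%. How much of the chi-square came from that gene was not tested. PEG10 and SGCE, neighbouring genes known to be expressed from the paternal copy, had log2 fold changes of -10.55 ± 0.39 (SE) and -5.35 ± 0.34, so the libraries matched their labels. Markers of other tissues were few in this table. The sum of 3 extraembryonic markers was 25573 to 34314 CPM in controls and 175 to 211 CPM in parthenotes. In controls nearly all of it was the imprinted gene PEG10, and in parthenotes most of it was TFPI2. HBB, the only red cell marker measured, was at 873 to 2065 CPM in controls and 102 to 575 CPM in parthenotes. CD3E and CD3D of white blood cells summed to at most 2.35 CPM in any library. A change in the share of a cell type and a change of RNA per cell cannot be told apart in whole embryos, and the part of red cells or extraembryonic tissue in the values below was not tested.

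None of the 3 genes passed the test of parthenotes against controls. By the quasi-likelihood method of edgeR, with p-values adjusted over the 807 genes after Benjamini and Hochberg, 42 genes passed at 0.05, or 5.2%, and 0 of the 3 were among them. None had an unadjusted p under 0.05, which 21.7% of all tested genes had. Controls and parthenotes overlapped for all 3, while the groups did not overlap for 28.0% of the tested genes. DESeq2 and limma-voom also called 0 of the 3. The size of change that all 6 libraries could exclude, without a block, was smallest for EZH2 and largest for KMT2A, and the order of EED and KMT2A depended on control 1 and on the block, as given below.

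EZH2 lies on chromosome 9 of Sscrofa11.1 at positions 109384976 to 109450943, by its symbol in the RefSeq gene table. Its level was 2002, 1970 and 1898 CPM in control 1, 2 and 3, and 1968, 1839 and 1985 CPM in parthenote 1, 2 and 3. The 6 embryos were nearly level, and the lowest and the highest of them, parthenote 2 and control 1, came from different groups. The mean was 1957 ± 53.0 CPM in controls and 1931 ± 80.0 CPM in parthenotes (SD, n = 3 each). These SDs were 2.71% and 4.14% of the mean, where counting error alone would give 1.99% and 1.92%. The log2 fold change of parthenote over control was -0.02 ± 0.08 (SE), with an adjusted p of 0.923 in edgeR's test. The 95% interval ran from -0.19 to 0.16, which excludes a rise of over 11.4% and a fall of over 12.6%. Without parthenote 2 the log2 fold change was 0.02 and the limit on a rise widened to 17.6%. Without control 3 the limit on a fall widened to 18.1%.

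EED lies at 20123077 to 20158747 of the same chromosome. A long noncoding RNA gene, LOC106504836, overlaps 22262 bp of this span. The libraries carry no strand information, so the counts of the 2 genes cannot be told apart where their exons coincide. EED was at 701, 499 and 522 CPM in control 1, 2 and 3, and at 505, 533 and 563 CPM in parthenote 1, 2 and 3. Control 1 was the highest library, and the other 5 lay between 499 and 563 CPM. The mean was 574 ± 111 CPM in controls and 534 ± 29.3 CPM in parthenotes (SD, n = 3 each). Control 1 alone made the wider spread of the control group.

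The log2 fold change of EED was -0.10 ± 0.14 (SE), with an adjusted p of 0.716 in edgeR's test. Its 95% interval, from -0.43 to 0.22, excludes a rise of over 16.2% and a fall of over 25.6%. The sign rested on control 1. Without that library the log2 fold change was 0.07 and the interval excluded a fall of over 10.7% and a rise of over 22.5%. Without both libraries numbered 1 it was 0.10, with limits of 8.0% on a fall and 24.3% on a rise. The limit on a fall widened to 31.7% without control 2. The lowest bound of any setting was -0.55, without parthenote 3. No setting made the change pass the test.

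KMT2A lies at 45743566 to 45828559 of chromosome 9. It was at 1602, 2817 and 3120 CPM in control 1, 2 and 3, and at 2252, 2702 and 3136 CPM in parthenote 1, 2 and 3. The library numbered 1 was the lowest of each group, and parthenotes 1 and 2 lay within the range of the controls, with parthenote 3 just above it. The mean was 2513 ± 803 CPM in controls and 2697 ± 442 CPM in parthenotes (SD, n = 3 each), so the SD was 32.0% and 16.4% of the mean. Counting error alone would give 1.75% and 1.62%, so nearly all of this spread lay between the libraries and not in the depth of sequencing.

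The log2 fold change of KMT2A was 0.10 ± 0.23 (SE), with an adjusted p of 0.844 in edgeR's test. The 95% interval, from -0.44 to 0.64, excludes only a rise of over 55.8% and a fall of over 26.0%. Without control 1 the log2 fold change was -0.14, and the limits became 14.0% on a rise and 27.5% on a fall. Without both libraries numbered 1 it was -0.03, with limits of 15.9% and 17.2%. Without parthenote 3 it was -0.03 also, and the lower bound fell to -0.66, the lowest of any setting. With the replicate number as a block the log2 fold change was 0.14 and its SE 0.12, with limits of 34.4% on a rise and 9.14% on a fall. Without control 3 the limit on a rise widened to 83.6%.

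**Figure D1:**
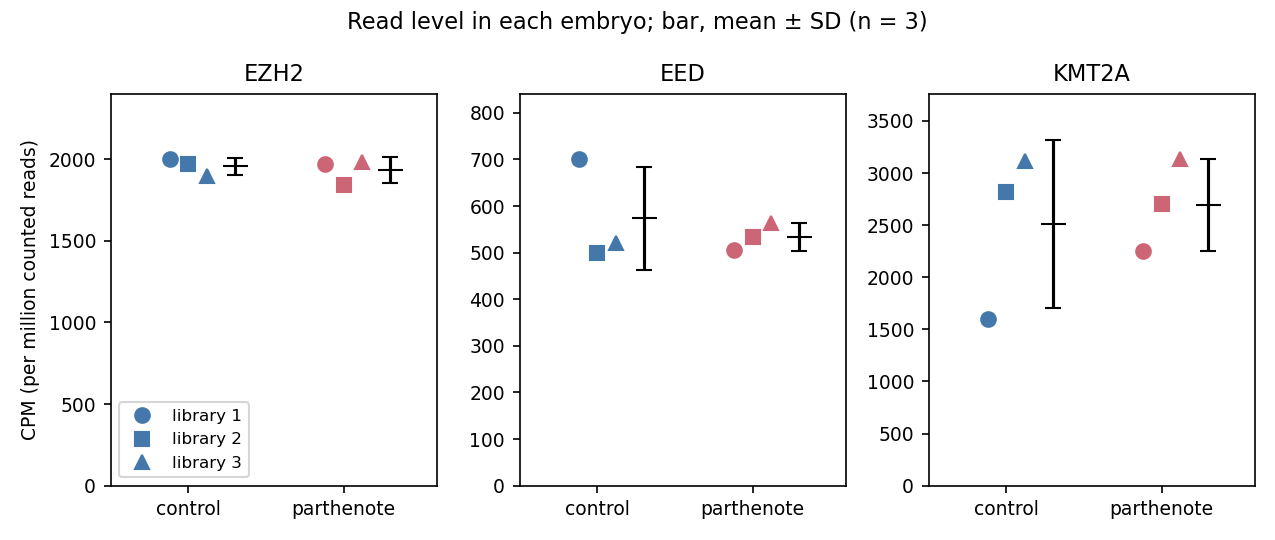
CPM of EZH2, EED and KMT2A in each of the 6 embryos, with the control libraries in blue and the parthenote libraries in red, symbols for the replicate number, and a bar for the mean ± SD of 3 libraries. EZH2 is level at 1839 to 2002 CPM, control 1 stands above the rest for EED at 701 CPM, and control 1 is the lowest library for KMT2A at 1602 CPM.

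Control 1 moved EED and KMT2A in opposite directions. Against the mean of control 2 and 3 on the log2 scale, it was 0.46 higher for EED and 0.89 lower for KMT2A. Among the 807 genes, 8.55% deviated further upward in control 1 than EED, and 3.59% further downward than KMT2A. EZH2 was only 0.05 higher there, near the middle of all genes. In parthenote 1, KMT2A was again lower than in the other 2 parthenotes, by a log2 difference of -0.37, and 8.67% of genes lay lower still. EED did not follow the same course there, with a log2 difference of -0.12. What set the libraries numbered 1 apart was not tested.

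The precision reached for each gene can be read against all tested genes. EZH2 had the 14th smallest SE, since 13 of 807 genes (1.61%) had a smaller one. For EED 48.9% of genes had a smaller SE, and for KMT2A 73.4%. The 95% interval lay within a 1.5-fold change either way for EZH2 and EED and for 51.3% of all tested genes, but not for KMT2A. The estimate that would just have been called follows from the SE of each gene and the p-value of the last gene called, 0.00259. This size was 1.25-fold for EZH2, 1.5-fold for EED and 1.99-fold for KMT2A. With the replicate number as a block, a pairing taken from the data, this size was 1.43-fold for KMT2A. These sizes refer to the estimate, and a true change of the same size could still be missed.

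**Figure D2:**
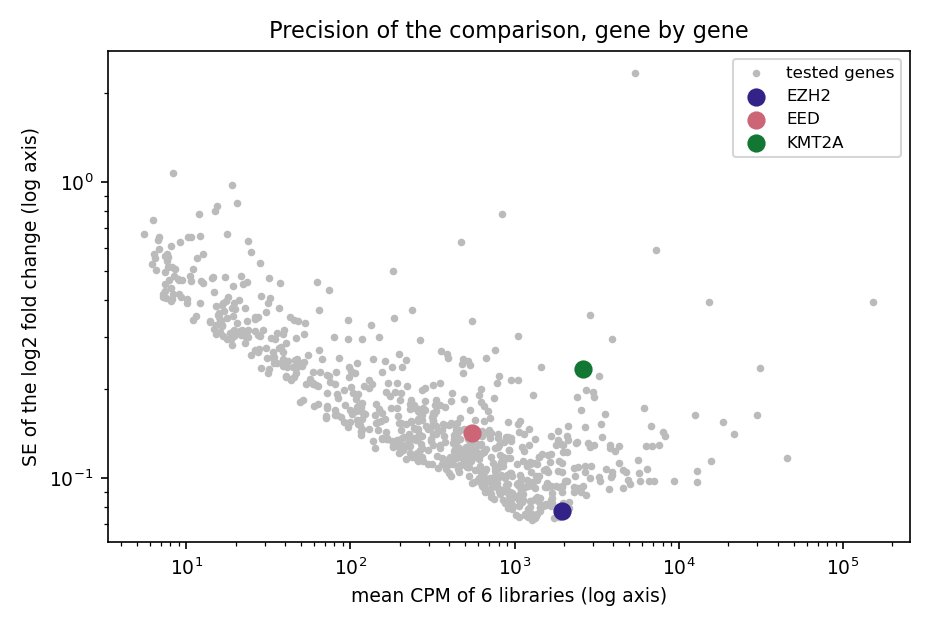
SE of the log2 fold change (log axis) against mean CPM over 6 libraries (log axis) for the 807 tested genes in grey, with EZH2, EED and KMT2A as large points. EZH2 lies at the lower edge of the cloud with an SE of 0.08, EED within it at 0.14, and KMT2A above most genes of like level at 0.23.

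The balance between the genes was then compared within each library, as a ratio of counts that does not depend on the scaling between libraries. Transcript lengths were not used here, so a ratio has meaning only against the same ratio in another library. EED to EZH2, the 2 PRC2 subunits, stood at 0.350, 0.253 and 0.275 in control 1, 2 and 3 and at 0.256, 0.290 and 0.284 in parthenote 1, 2 and 3. The groups overlapped, with control 1 above all parthenotes and control 2 below them. The mean log2 difference of parthenote minus control was -0.07, with a 95% interval of -0.49 to 0.35. An exact two-sided permutation test gave p = 0.900 (1.00 after adjustment over 3 ratios), where 3 against 3 samples cannot go below 0.1.

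KMT2A to EZH2, the lysine 4 against the lysine 27 enzyme, stood at 0.800, 1.43 and 1.64 in control 1, 2 and 3 and at 1.14, 1.47 and 1.58 in parthenote 1, 2 and 3. All parthenotes lay between the lowest and the highest control. The mean log2 difference was 0.17, with a 95% interval of -0.80 to 1.13 (exact permutation p = 0.800, adjusted 1.00). Without both libraries numbered 1 it was -0.01. KMT2A to EED gave a mean log2 difference of 0.24, with an interval of -1.04 to 1.51 (exact permutation p = 1.00), and -0.13 without both libraries numbered 1. For EED to EZH2 the corresponding value was 0.12.

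Other genes of the same pathways were taken from lists of PRC2, PRC1, the H2A deubiquitinase PR-DUB, the KMT2 complexes, histone demethylases and methyltransferases, and DNA methylation and imprint maintenance. Of 158 genes in these lists 9 were tested, including the 3 above, since the others were not among the rows analysed here. None of the 9 passed in edgeR's test and 0 had an unadjusted p under 0.05. In log2 fold change 5 lay above 0 and 4 below, from -0.18 to 0.16, with a median of 0.07 where all tested genes had 0.02. For 8 of the 9, all but KMT2A, the 95% interval lay within a 1.5-fold change either way.

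RNF2 (RING1B), the ubiquitin ligase of PRC1, was the one member of that complex measured. It was at 2595, 2325 and 2592 CPM in control 1, 2 and 3, and at 2634, 2901 and 2648 CPM in parthenote 1, 2 and 3. Each parthenote lay above each control, as for 13.8% of tested genes, by a small margin. The log2 fold change was 0.12 ± 0.09 (SE), with an interval of -0.09 to 0.34 and an adjusted p of 0.488 in edgeR's test.

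RBBP5, of the core that the KMT2 enzymes share, had a log2 fold change of 0.07 ± 0.09, with an interval of -0.13 to 0.27. KMT2E, a more distant relative of KMT2A, had one of 0.16 ± 0.13, with an interval of -0.14 to 0.45. KMT2E was lowest in control 1, at 2982 CPM against 3698 to 4252 CPM in the other 5 libraries, as KMT2A was. Without control 1 its log2 fold change was 0.04, and 0.09 without both libraries numbered 1. SMYD2, another lysine methyltransferase, had a log2 fold change of -0.18 ± 0.13, and PRDM10, a zinc finger protein of the PR domain family, one of -0.08 ± 0.13, or -0.18 without control 1 and -0.20 without both libraries numbered 1. ZNF202, a zinc finger gene and the only tested member of the imprint maintenance list, had 0.15 ± 0.13, or 0.05 without control 1 and 0.10 without both libraries numbered 1. HDAC9, a histone deacetylase, had 0.02 ± 0.11, with a sign that turned with upper-quartile scaling and without control 1 or parthenote 3.

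A further list held developmental transcription factors known as targets of Polycomb or KMT2A in other cells. All 8 tested members had a log2 fold change above 0, with a median of 0.29, where all tested genes had 0.02. None of the 8 passed the test, and 3 of them, DLX5, LHX4 and DLX6, had an unadjusted p under 0.05. Of all tested genes 5.2% passed and 21.7% had such a p. The groups did not overlap for 5 of the 8, all with higher parthenotes (DLX5, DLX6, LHX4, PROX1 and MYOG), as for 13.8% of all tested genes. All 8 stayed above 0 under the 20 alternative settings, and 0 passed in any of them, DESeq2 and limma-voom included. The threshold of 0.01, glmTreat and a fit without robust estimation leave the log2 fold changes as they were, so no sign could turn there. With glmTreat or at 0.01 no further gene could pass. The median of the 8 was 0.19 without both libraries numbered 1. Values of DLX5, MYOG and PHOX2A were known when the list was drawn up. Its direction and its count of genes without overlap are therefore descriptions and not independent evidence.

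DLX5, a homeobox gene of limb and craniofacial development, was at 153, 185 and 150 CPM in control 1, 2 and 3, and at 213, 234 and 225 CPM in parthenote 1, 2 and 3. Its neighbour DLX6 was at 120, 122 and 131 CPM in controls and 154, 157 and 160 CPM in parthenotes. The parthenotes were the higher group throughout for both. The log2 fold changes were 0.46 ± 0.13 (SE) for DLX5 and 0.34 ± 0.13 for DLX6, with adjusted p-values of 0.0946 and 0.162 in edgeR's test. LHX4, a LIM homeobox gene of the pituitary, had 0.41 ± 0.15 (adjusted p = 0.162), and PROX1, a regulator of lymphatic vessel and liver development, 0.44 ± 0.21 (adjusted p = 0.263). PROX1 was at 126 CPM in control 1, 221 and 214 CPM in control 2 and 3, and 230 to 269 CPM in parthenotes. Without control 1 the log2 fold change of PROX1 was 0.22, and 0.19 without both libraries numbered 1. Smaller changes were found for MYOG (0.15 ± 0.08), MEOX2 (0.18 ± 0.12), BARX2 (0.13 ± 0.18) and PHOX2A (0.23 ± 0.31). PHOX2A was at only 13.4 to 24.9 CPM. Whether these levels go with EZH2, EED or KMT2A activity was not tested.

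**Figure D3:**
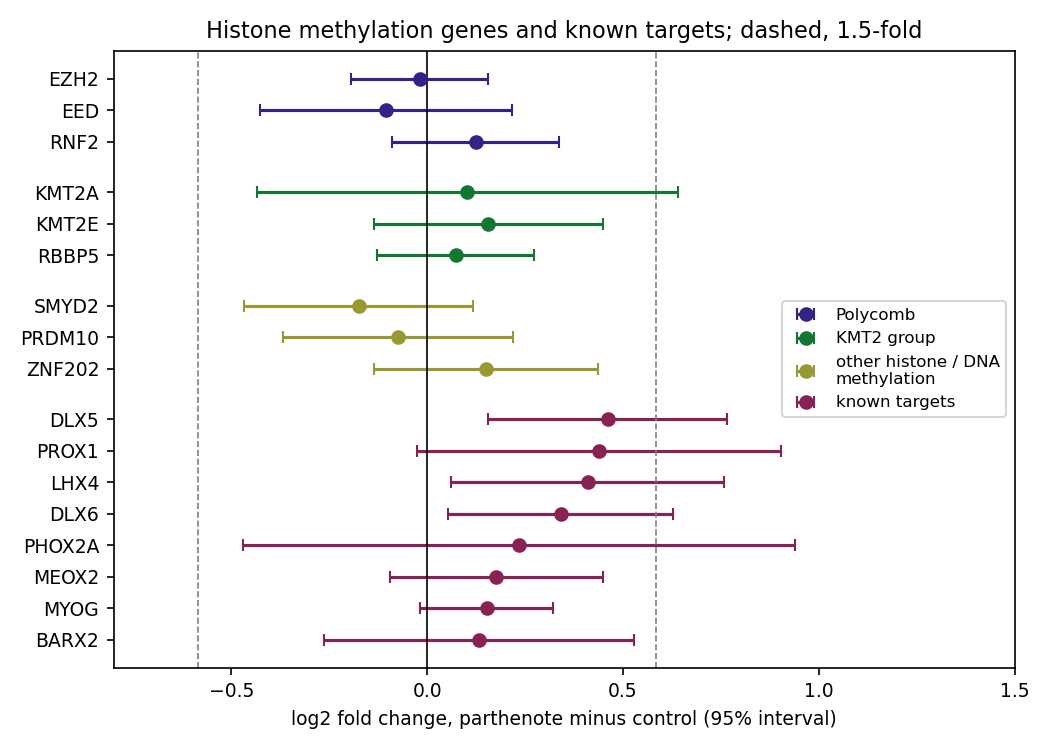
Log2 fold change of parthenote over control with its 95% interval, with dashed lines at a 1.5-fold change. Shown are the 9 tested genes of the Polycomb, KMT2, histone and DNA methylation lists and the 8 tested developmental transcription factors. The intervals of EZH2 and EED include 0 and stay between the dashed lines, and that of KMT2A includes 0 and passes the upper one. The estimates of the 8 transcription factors all lie to the right of 0. The intervals of PROX1, MYOG, MEOX2, BARX2 and PHOX2A include 0.

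Proliferation genes were listed because EZH2 is known to be higher in dividing cells. Of 32 listed genes 3 were tested, and 0 passed or had an unadjusted p under 0.05. CENPF, a kinetochore protein gene of dividing cells, had a log2 fold change of 0.08 ± 0.11 (SE), or 0.05 without control 1. It was the only one of the 3 above 0. RRM1 and DTL lay below 0, and the median was -0.02.

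The genes nearest to each of the 3 that were tested and had a position also gave no call. PDIA4 and CUL1 flank EZH2, with CUL1 3579 bp away. PICALM and PRSS23 flank EED, and MPZL2 and IFT46 flank KMT2A. Their 6 log2 fold changes ran from -0.12 for PRSS23 to 0.09 for IFT46.

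Each gene was last set against all tested genes with a symbol by Pearson's correlation of log2 CPM over the 6 libraries, which share depth and scaling. The highest values for EZH2 were 0.955 with NEK2, a mitotic kinase gene, 0.946 with CDCA7L and 0.915 with CCDC90B. For EED they were 0.984 with CUL5, a cullin of ubiquitin ligases, 0.978 with GTPBP10 and 0.967 with VAMP4. For KMT2A they included 0.970 with DCHS1 and 0.967 with FAM168A. EED and KMT2A correlated at -0.737 with each other, EED and EZH2 at 0.399, and KMT2A and EZH2 at -0.420. These are descriptions of 6 libraries in which control 1 lies far from the rest for EED and KMT2A.

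**Figure D4:**
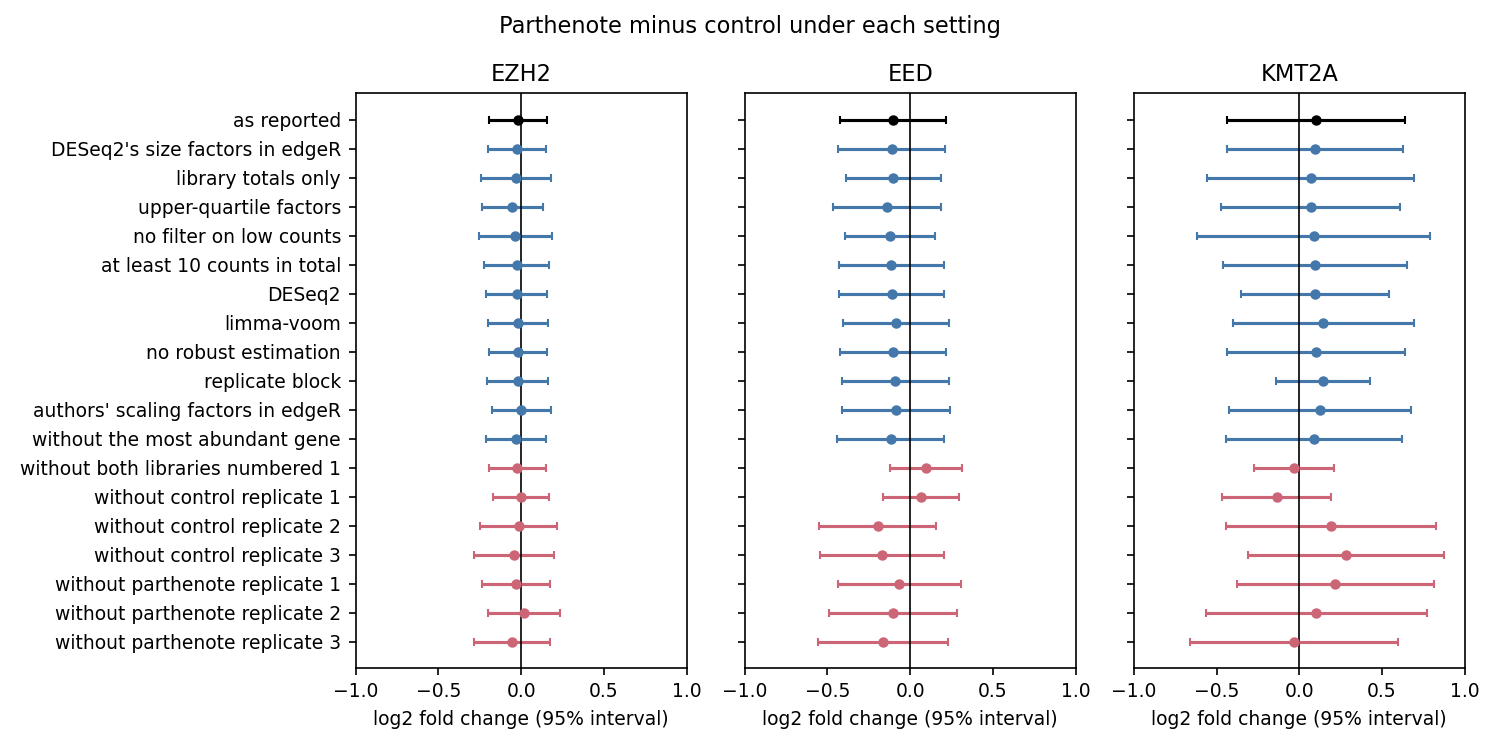
Log2 fold change of EZH2, EED and KMT2A with its 95% interval as reported (black), under other scalings, filters, tests and the replicate block (blue), and with libraries left out (red). Every interval includes 0, the values of EZH2 stay between -0.06 and 0.02, and EED and KMT2A change sign without control 1.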

How the data were processed

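The authors deposited raw counts of reads by gene for 6 libraries, made with a TruSeq v.2 kit per the labels' protocols. HISAT2 2.1.0, SAMtools 1.9 and the build Sscrofa11.1 were used, per the submitters' processing notes. A counting tool was not given in the sources used here, nor was its annotation. The authors also deposited a normalized signal of 1190 genes for each sample, close to counts times 1 factor a sample. Divided by that factor, 177 to 277 genes a sample lay over 0.5 reads from the count. It served only for ratios and for the authors' scaling factors.

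Symbols came from a table of Ensembl identifiers (779 of 1780 genes), and positions from RefSeq's Sscrofa11.1 table by symbol. Genes of the other chromosomes were, with 2 exceptions among the placed genes, not analysed here. The filter filterByExpr (minimum count 10, minimum total 15) left 807 genes. The test was a robust quasi-likelihood fit in edgeR 4.0.16 (R 4.3.3) with TMM scaling, of parthenotes against controls, with Benjamini-Hochberg adjustment and a threshold of 0.05. Intervals are 95% intervals from the SE and degrees of freedom of that fit. They were tested on simulated data in which no library stood apart. That test therefore does not show how they hold with libraries such as control 1. Intervals of ratios use the SD pooled over both groups. Alternatives used DESeq2 1.42.0, limma-voom (limma 3.58.1), other scalings and filters, glmTreat, a stricter threshold, the replicate number as a block, and libraries left out.

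The members, gene lists and tests were chosen with earlier results of these data known. The named genes are the 3 members, all tested members of the chromatin lists, the called and the most abundant members of other lists, the nearest tested neighbours and the 3 most correlated genes. 1 gene that this rule selects is not reported here. Some transcription factors and markers were named after their values were seen. The pairing of replicate numbers comes from the data: deviations from group means correlated at 0.365, 0.272 and 0.147 between samples numbered 1, 2 and 3. No libraries of a group agreed within sampling noise, so none were merged.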

Additional observations from a re-analysis of the deposited data

How the results depend on the processing

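None of EZH2, EED and KMT2A passed under any of the 20 alternatives, with adjusted p-values from 0.770 (EZH2), 0.498 (EED) and 0.494 (KMT2A) upward. Signs turned for EZH2 with the authors' scaling factors (0.0016), and without both libraries numbered 1 for EED (0.10) and KMT2A (-0.030), where the EED to EZH2 ratio also moved to 0.12. HDAC9 turned to -0.015 with upper-quartile factors. With 1 library left out at a time, log2 fold changes ran from -0.055 to 0.016 for EZH2, -0.20 to 0.065 for EED, -0.14 to 0.28 for KMT2A, -0.047 to 0.079 for HDAC9 and -0.18 to 0.0068 for PRDM10. The count of called genes was 68 in DESeq2, 76 without both libraries numbered 1, 13 with glmTreat (beyond 1.5-fold), 17 at a threshold of 0.01, and 17 to 55 with 1 library left out. Of the extraembryonic list 1 gene in place of 2 passed in DESeq2, at 0.01, with glmTreat and without both libraries numbered 1, and 1 to 2 with 1 library left out. In DESeq2 the other gene, PLET1, had a log2 fold change of -2.77 but was given no adjusted p, so it was not set against the threshold. HBB of the red cell list passed in DESeq2 and limma-voom (1 gene in place of 0), with 0 to 1 when 1 library was left out. The cause of the other differences was not tested, except that glmTreat and the threshold of 0.01 are stricter by construction. The replicate block gave 55 called genes and ended or made no call of the 3 genes. The settings with the authors' factors, without the most abundant gene and without both libraries numbered 1 were added after seeing the data. An estimated change of KMT2A below 1.99-fold could not be called without the block, or below 1.43-fold with it, and its depth was not the limit.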
